A study of Mus musculus with 18 samples.

Results

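The interleukin receptor chains described here are 8 genes of the thymocyte, found in the count files by the Entrez GeneID of their mouse symbols: Il7r, Il2ra, Il2rb, Il2rg, Il4ra, Il21r, Il6ra and Il6st. They are 8 of the 27179 genes counted, and all 8 were among the 12798 genes that passed the filter on low counts and were tested. RNA sequencing was performed on CD69+ thymocytes, which were sorted from 3 Hoil ΔCd4, 3 Sharpin cpdm and 3 WT mice into fractions of low and of high MHC class I, MHC I low and MHC I high, giving 18 libraries in all with 10577966 to 16266128 counts assigned to genes. CD69 marks cells that have recently received a T-cell receptor signal, and MHC class I rises with their maturation, which places MHC I high after MHC I low. WT mice were C57BL/6. In Hoil ΔCd4 mice Rbck1, which encodes HOIL-1, was deleted by Cre under the control of Cd4, so the loss begins within the T lineage. Sharpin cpdm mice carry the cpdm mutation of Sharpin in every cell, came from the C57BL/Ka strain and had been crossed to C57BL/6 for few generations, so that SHARPIN loss and strain cannot be told apart. Mice of both sexes were used, no ages were given for these mice, and no treatment was applied. The sort gated out dead cells and cells that carried the gamma-delta T-cell receptor, the myeloid antigens Mac-1 and Gr1, B220, NK1.1, MHC II, CD44 or CD25 on their surface, so that the Il2ra values below come from cells sorted as lacking surface CD25.

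HOIL-1 and SHARPIN, with the catalytic subunit HOIP, form the linear ubiquitin chain assembly complex (LUBAC), which attaches linear ubiquitin chains to signalling proteins and activates NF-κB. Interleukin receptors of the class studied here have no kinase of their own and signal through bound JAK kinases and the STAT factors these phosphorylate. Il7r encodes the IL-7 receptor α chain, on which thymocytes and naive T cells depend for survival, and its partner is the common γ chain encoded by Il2rg. Il2ra (CD25), Il2rb (CD122) and Il2rg make the high-affinity IL-2 receptor, and IL-15 also signals through Il2rb and Il2rg. Il4ra and Il21r pair with the same γ chain to bind IL-4 and IL-21, whereas Il6ra binds IL-6 and passes the signal to gp130, the product of Il6st.

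Il2ra and Il7r were the genes called against WT (limma adjusted p under 0.05) in both fractions of both mutants, and the sequences before their start sites are shown because each holds a motif that the other lacks. The RefSeq promoter table of GRCm38.p6 held 7 of the 8 genes, Il2rb being the other. The 250 bases before each start in that table were searched on both strands for the kappaB consensus, the STAT palindrome TTCNNNGAA, the FOXO motif GTAAACA and the ETS motif CCGGAAG. Capitals mark the matches in the following sequences, which run 5′ to 3′ on the strand of the gene. The Il2ra stretch is chr2:11642542-11642791 (plus strand, 250 bases) and the Il7r stretch is chr15:9529942-9530126 (minus strand, the 185 bases that lie outside the annotated gene).
Il2ra: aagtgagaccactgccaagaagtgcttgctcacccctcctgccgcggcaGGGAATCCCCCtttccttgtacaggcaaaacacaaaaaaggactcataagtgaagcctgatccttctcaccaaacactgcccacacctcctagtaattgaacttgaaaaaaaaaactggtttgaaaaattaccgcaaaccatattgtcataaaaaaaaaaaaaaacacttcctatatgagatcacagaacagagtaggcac
Il7r: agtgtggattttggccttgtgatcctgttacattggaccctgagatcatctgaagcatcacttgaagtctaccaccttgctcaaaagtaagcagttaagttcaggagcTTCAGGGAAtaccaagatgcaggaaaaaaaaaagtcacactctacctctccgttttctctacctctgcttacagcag
In Il2ra the capitals are 2 overlapping kappaB matches that begin 201 and 200 bases before the start. Of the 32851 windows in the table, 7.25% held a kappaB match, and Il2ra was the one gene of the 7 with one. In Il7r the capitals are a STAT palindrome that begins 142 bases before the start in the promoter table, which lies inside the gene as counted, and 77 bases before the edge of the counted gene, a match that 7.02% of the windows held. The FOXO motif was found in Il21r (3.17% of windows), 38 bases before the start in the promoter table but 139 bases past the first base of the gene as counted, and the ETS motif in Il2rg, 17 bases before its start (6.91%). Il4ra, Il6ra and Il6st held none of the 4 motifs.

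The labels were checked first. Rbck1 lay between 217 and 268 CPM (read counts relative to library size, scaled by TMM) in the 12 libraries of WT and Sharpin cpdm mice, between 0.271 and 0.779 CPM in the Hoil ΔCd4 MHC I low libraries and between 3.72 and 8.94 CPM in the Hoil ΔCd4 MHC I high libraries, mouse 2 being highest. Sharpin was 71.5 CPM in the MHC I low and 73.8 CPM in the MHC I high fraction of Sharpin cpdm mice, against 91.3 and 89.7 CPM in WT, so the mutant mRNA was still counted. H2-K1, a class I gene, averaged 216 CPM in the earlier and 2003 CPM in the later fraction of WT, and Cd69 averaged 404 and 123 CPM. Markers of cells that the sort was meant to remove were summed: 8 B-cell genes gave 3.71 to 6.76 CPM, 12 myeloid and dendritic genes 24.7 to 35.3 CPM, 9 NK and NKT genes 3.32 to 67.7 CPM and 5 gamma-delta T-cell genes 42.5 to 124 CPM. Among the NK and NKT genes Nkg7, which is also a CD8-lineage gene, averaged 40.2 CPM in WT MHC I high cells. In bulk libraries fewer cells of a type and less RNA per cell cannot be told apart.

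To set the chains on one scale, levels were divided by the length counted for each gene. Il2rg was the most abundant, at 319 ± 7.44 CPM per kb in WT MHC I low cells (mean ± SD of 3 mice, as throughout). Il7r followed at 120 ± 4.49, Il6st at 98.3 ± 2.92, Il21r at 66.3 ± 2.74 and Il4ra at 49.2 ± 2.55 CPM per kb. Far below these came Il2rb at 8.87 ± 0.5, Il6ra at 4.36 ± 0.650 and Il2ra at 3.60 ± 0.937 CPM per kb, and of all neighbours in that order only Il6ra and Il2ra had overlapping mice. In WT MHC I high cells Il2rg was again first at 314 ± 26.4 CPM per kb. Next came Il6st, Il7r and Il21r at 90.2 ± 7.0, 89.2 ± 2.28 and 87.6 ± 3.92 CPM per kb, and their mice overlapped. Il2rb, at 49.8 ± 2.83 CPM per kb, now lay above Il4ra at 36.1 ± 2.43, and Il6ra at 22.5 ± 1.96 now lay above Il2ra at 3.08 ± 0.440 CPM per kb.

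**Figure D1:**
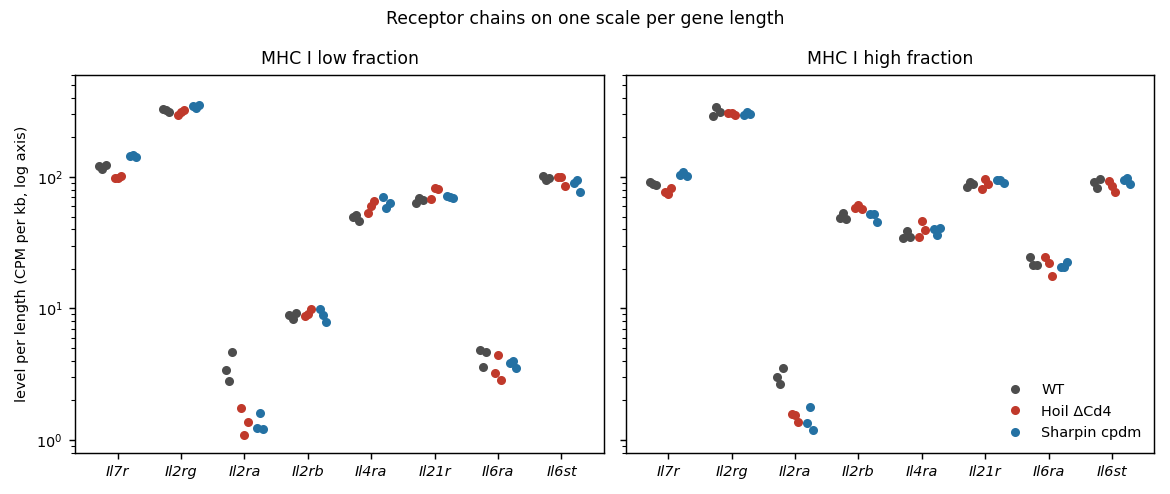
Level of each receptor chain per gene length (CPM per kb, log axis) in every library, with the MHC I low fraction on the left, the MHC I high fraction on the right and 1 point per mouse. Il2rg lies between 288 and 352 CPM per kb in all 18 libraries, and Il2rb and Il6ra stand several-fold higher on the right than on the left.

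Counted over the 8 genes, 2 were called in Hoil ΔCd4 against WT in MHC I low cells, both lower, where 0.985% of all tested genes were called. In MHC I high cells 3 were called, Il7r and Il2ra lower and Il2rb higher, against 6.65% of all genes. For Sharpin cpdm against WT, 3 were called in MHC I low cells, Il7r and Il4ra higher and Il2ra lower, against 12.2% of all genes, and 2 in MHC I high cells, Il7r higher and Il2ra lower, against 8.62%. Between the mutants Il7r alone was called in each fraction, against 9.48% of all genes in the earlier and 6.73% in the later fraction. Between the fractions 5 of the 8 were called in mice of WT genotype and 6 in each mutant, but in WT, Hoil ΔCd4 and Sharpin cpdm so were 54.4%, 45.3% and 54.6% of all genes. The change between fractions was not called as different from WT by limma for any of the 8 genes in Hoil ΔCd4 (0.398% of all genes called) or in Sharpin cpdm mice (3.13%), while 2 of the 8 had an unadjusted p under 0.05 in each. edgeR and DESeq2 also called none there.

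The IL-7 receptor α chain moved in opposite directions in the mutants: Il7r was lower than WT in Hoil ΔCd4 thymocytes and higher than WT in Sharpin cpdm thymocytes, in both fractions. Il7r lies at chr15:9506159-9529941 of mm10 (GeneID 16197). In the MHC I low fraction, Il7r was 390.0, 367 and 394 CPM in WT mice 1, 2 and 3, 314, 317 and 325 CPM in Hoil ΔCd4 mice, and 461, 473 and 451 CPM in Sharpin cpdm mice. Later, in MHC I high cells, WT mice had 295, 284 and 281 CPM, Hoil ΔCd4 mice 248, 237 and 267 CPM and Sharpin cpdm mice 332, 350 and 328 CPM. Within a fraction the 3 genotypes did not overlap, with every Hoil ΔCd4 mouse below and every Sharpin cpdm mouse above every WT mouse. Against WT, Il7r differed by a log2 fold change of -0.27 in Hoil ΔCd4 MHC I low cells (95% interval -0.39 to -0.16, limma adjusted p = 0.00807). The Hoil ΔCd4 difference was -0.18 in MHC I high cells (-0.29 to -0.08, limma adjusted p = 0.0235). For Sharpin cpdm mice it was 0.27 in the MHC I low fraction (0.17 to 0.38, limma adjusted p = 0.000518) and 0.26 in the MHC I high fraction (0.16 to 0.35, limma adjusted p = 0.000356). Set directly against Sharpin cpdm, Hoil ΔCd4 cells had Il7r 1.46-fold lower in the MHC I low fraction (log2 -0.54, SE 0.0575, limma adjusted p = 1.47e-07) and 1.36-fold lower in the MHC I high fraction (log2 -0.44, SE 0.0509, limma adjusted p = 6.18e-07), and each was called in all 19 alternative analyses (another tool, scaling, filter, weight, block or covariate, or a mouse left out). These comparisons share samples, so their signs are not independent of each other.

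The Hoil ΔCd4 difference in Il7r lost its call in more of the alternatives than that of Sharpin cpdm did. In MHC I low cells the call was lost at a log2 fold change of -0.26 without WT mouse 1 (adjusted p = 0.0734, limma) and of -0.25 without WT mouse 3 (adjusted p = 0.0652, limma), and its call in the MHC I high fraction went without WT mouse 1, WT mouse 3 or Hoil ΔCd4 mouse 2, the last giving the highest adjusted p of 0.236 (limma, log2 -0.15). That call also went with the compared groups alone in the fit (adjusted p = 0.053, limma, log2 -0.19) and with Xist as a covariate (adjusted p = 0.0797, limma, log2 -0.15), 5 of 19 alternatives in all. The Sharpin cpdm difference in MHC I high cells lost its call without WT mouse 3 (limma adjusted p = 0.0544). Summed markers of mature single-positive thymocytes (10 genes) took the same order of genotypes in the MHC I low fraction. Their sum was 1050 to 1150 CPM in Hoil ΔCd4, 1240 to 1260 CPM in WT and 1340 to 1400 CPM in Sharpin cpdm mice. It includes the class I genes H2-K1 and B2m, and MHC class I was the sorted variable. These were at 186.5 and 340 CPM in Hoil ΔCd4, 216 and 383.5 CPM in WT and 223 and 419 CPM in Sharpin cpdm. Klf2 took the opposite order, at 11.3, 9.78 and 8.70 CPM. Against WT, limma called none of the 10 in Hoil ΔCd4 and 1 in Sharpin cpdm, where 0.985% and 12.2% of all genes were called. The part of these markers in the Il7r difference was not tested. In the MHC I high fraction the sums were 4770 to 5070 CPM in Hoil ΔCd4, 5340 to 5710 CPM in WT and 5340 to 5550 CPM in Sharpin cpdm mice. H2-K1 and B2m averaged 1809 and 1243 CPM there in Hoil ΔCd4, 2003 and 1343 CPM in WT and 2091 and 1287 CPM in Sharpin cpdm.

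Il7r fell from the MHC I low to the MHC I high fraction in each of the 9 mice, to between 0.712 and 0.821 of its earlier level. The log2 change was -0.44 in WT (limma adjusted p = 2.43e-10), -0.35 in Hoil ΔCd4 (adjusted p = 1.42e-06) and -0.45 in Sharpin cpdm mice (adjusted p = 3.22e-10). Its change between fractions was not shown to differ from that of WT in either mutant, with a difference in log2 change of 0.09 for Hoil ΔCd4 (95% interval -0.05 to 0.22) and -0.01 for Sharpin cpdm (-0.14 to 0.11).

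The partner of Il7r, the common γ chain, stayed close to WT in both mutants. Il2rg (chrX:101264385-101268255, GeneID 16186) was 525, 517 and 502 CPM in WT MHC I low mice, 473, 504 and 519 CPM in Hoil ΔCd4 and 554, 540.3 and 567 CPM in Sharpin cpdm. The MHC I high libraries held 464, 549.6 and 505 CPM in WT mice, 492, 497 and 479.9 CPM in Hoil ΔCd4 mice and 477, 505 and 481 CPM in Sharpin cpdm mice. Sharpin cpdm MHC I low mice stood above all others of that fraction, and elsewhere the genotypes overlapped. The largest of the 4 differences from WT was a log2 fold change of 0.10 in Sharpin cpdm MHC I low cells (95% interval -0.01 to 0.21, limma adjusted p = 0.247), and the widest interval of the other 3 ran from -0.17 to 0.07. From the MHC I low to the MHC I high fraction Il2rg fell by 0.17 on the log2 scale in Sharpin cpdm mice (limma adjusted p = 0.00292), while in WT its log2 change was -0.04 (limma adjusted p = 0.497) and in Hoil ΔCd4 -0.03 (limma adjusted p = 0.723). The Sharpin cpdm change was not shown to differ from the WT change (difference -0.13, 95% interval -0.26 to 0.00, limma adjusted p = 0.285). Per length, the ratio of Il7r to Il2rg in the MHC I low fraction was 0.375 ± 0.0188 for WT mice, 0.321 ± 0.0106 for Hoil ΔCd4 mice and 0.419 ± 0.0201 for Sharpin cpdm mice. In MHC I high cells the WT ratios of 0.318, 0.259 and 0.279 overlapped the Hoil ΔCd4 ratios of 0.253, 0.239 and 0.279, and the Sharpin cpdm ratios of 0.350, 0.348 and 0.343 lay above both.

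**Figure D2:**
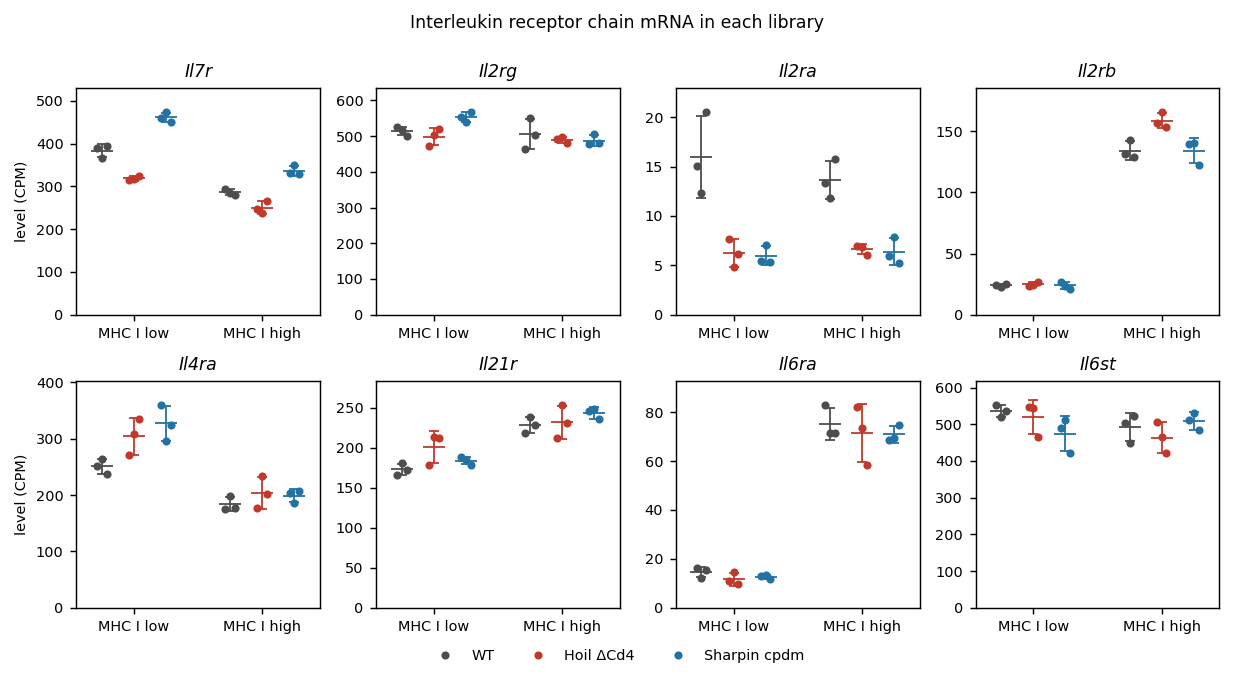
Level (CPM, axis from 0) of each receptor chain in all 18 libraries, with 1 point per mouse and a bar for mean and SD in each genotype and fraction. Il7r shows 3 separate levels in each fraction, Il2ra is high in WT alone, and Il2rb and Il6ra are high in the MHC I high fraction of all genotypes.

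The α chain of the IL-2 receptor was lower in both mutants than in WT, by 2.15-fold to 2.58-fold. Il2ra (chr2:11642792-11693194, GeneID 16184) was 15.1, 12.3 and 20.5 CPM in WT MHC I low mice, 7.70, 4.84 and 6.11 CPM in Hoil ΔCd4 and 5.47, 7.06 and 5.35 CPM in Sharpin cpdm. At the later stage WT mice had 13.3, 11.9 and 15.7 CPM, Hoil ΔCd4 mice 6.98, 6.90 and 6.05 CPM and Sharpin cpdm mice 5.95, 7.88 and 5.28 CPM. Every WT library lay above every mutant library, and the mutants overlapped each other in both fractions. Between 56 and 262 reads per library stand behind these values. In the MHC I low fraction Il2ra differed from WT by a log2 fold change of -1.34 in Hoil ΔCd4 (SE 0.193, limma adjusted p = 8.76e-05) and -1.37 in Sharpin cpdm mice (SE 0.176, limma adjusted p = 2.98e-06). In MHC I high cells it differed by -1.10 in Hoil ΔCd4 (SE 0.173, limma adjusted p = 0.000142) and -1.11 in Sharpin cpdm mice (SE 0.159, limma adjusted p = 1.81e-05). All 4 differences kept their call in the 19 alternatives each. Hoil ΔCd4 and Sharpin cpdm cells were not shown to differ in Il2ra (log2 0.02, 95% interval -0.38 to 0.43, in MHC I low and 0.01, -0.35 to 0.37, in MHC I high cells), nor were the fractions of any genotype.

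Regulatory T cells carry much CD25, and part of the genes that mark them were lower in the mutants, as Il2ra was. Of 10 regulatory T-cell markers tested, 3 were lower and none higher than WT in each mutant in the MHC I low fraction. Of all genes 0.985% were called there in Hoil ΔCd4 and 12.2% in Sharpin cpdm. In the MHC I high fraction 5 were lower in Hoil ΔCd4 and 6 in Sharpin cpdm cells, against 6.65% and 8.62% of all genes. Lrrc32, which encodes the TGF-β docking receptor GARP, was 2.41 ± 0.0959 CPM in WT MHC I low cells, 0.9749 ± 0.345 CPM in Hoil ΔCd4 and 0.499 ± 0.178 CPM in Sharpin cpdm. Foxp3, the defining factor of the lineage, was 0.758 ± 0.289, 0.955 ± 0.0786 and 0.491 ± 0.0559 CPM in the same order, and in MHC I high cells 4.96 ± 1.77, 3.31 ± 0.643 and 3.41 ± 0.288 CPM. Foxp3 was not called in any comparison with WT. Other markers had higher means in a mutant without being called. Nrp1 was 12.2 ± 0.803 CPM in WT and 16.9 ± 2.82 CPM in Sharpin cpdm MHC I low cells (limma adjusted p = 0.12), and in the later fraction 14.8 ± 1.44 CPM in Hoil ΔCd4 against 9.29 ± 1.99 CPM in WT (limma adjusted p = 0.069). Gpr83 was 43.2 ± 9.06 CPM in WT and 55.9 ± 11.2 CPM in Sharpin cpdm MHC I low cells (limma adjusted p = 0.188). Ikzf2 was 874 ± 105 CPM in WT MHC I low cells, 993 ± 62.8 CPM in Hoil ΔCd4 (limma adjusted p = 0.556) and 514 ± 33.5 CPM in Sharpin cpdm, where it was called lower (limma adjusted p = 4.11e-05). Tnfrsf4 (OX40) and Tnfrsf18 (GITR), members of the list that other activated T cells also express, were 33.5 ± 0.339 and 69.1 ± 2.27 CPM in WT MHC I low cells and 20.6 ± 2.20 and 52.7 ± 1.43 CPM in Hoil ΔCd4 cells. The part of regulatory T cells in the Il2ra difference was not tested.

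The β chain shared by the IL-2 and IL-15 receptors rose steeply between the fractions. Il2rb (chr15:78479256-78511621, GeneID 16185) was 24.2, 22.4 and 25.1 CPM in WT MHC I low mice, 23.8, 24.5 and 26.7 CPM in Hoil ΔCd4 and 26.5, 23.8 and 21.3 CPM in Sharpin cpdm. After the step to MHC I high, WT mice had 131, 143 and 129 CPM, Hoil ΔCd4 mice 157, 165.5 and 154 CPM and Sharpin cpdm mice 139.7, 140.5 and 122 CPM. The genotypes overlapped in the MHC I low fraction, and in the MHC I high fraction every Hoil ΔCd4 mouse lay above every mouse of the other genotypes. The rise was 5.47-fold in WT (log2 2.45, SE 0.0606, limma adjusted p = 8.96e-25), 6.33-fold in Hoil ΔCd4 (log2 2.66, SE 0.0744, limma adjusted p = 3.42e-23) and 5.62-fold in Sharpin cpdm mice (log2 2.49, SE 0.0635, limma adjusted p = 2.25e-24). Single mice rose between 5.12-fold and 6.76-fold. In Hoil ΔCd4 MHC I high cells Il2rb was above WT by a log2 fold change of 0.28 (95% interval 0.13 to 0.43, limma adjusted p = 0.0177), a call lost in 7 of 19 alternatives, among them edgeR (adjusted p = 0.0504) and leaving out WT mouse 3 (limma adjusted p = 0.362). Hoil ΔCd4 minus Sharpin cpdm, the log2 difference in that fraction was 0.23 (0.08 to 0.38, limma adjusted p = 0.0530) and was called in 8 of 19 alternatives. In Sharpin cpdm against WT the log2 fold change of Il2rb there was 0.05 (-0.09 to 0.18, limma adjusted p = 0.739).

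Cytotoxic-lineage cells carry CD122, and their genes rose along with Il2rb between the fractions. All 5 CD8-lineage genes (Cd8a, Cd8b1, Runx3, Nkg7 and Crtam) rose in each genotype and all 5 CD4-lineage genes fell. Of all genes 54.4%, 45.3% and 54.6% were called between the fractions in WT, Hoil ΔCd4 and Sharpin cpdm. The CD8-lineage sum lay between 362 and 408 CPM in WT MHC I low libraries and between 1220 and 1390 CPM in those of the MHC I high fraction. The sum of 9 NK and NKT markers lay between 5.16 and 6.27 CPM in the MHC I low and between 50.3 and 61.7 CPM in the MHC I high libraries of WT, with Ncr1 at 0 in all 18 libraries and Klrb1c, which encodes NK1.1, at 0.159 ± 0.0680 CPM in WT MHC I high cells. Nkg7 is in both the CD8-lineage and the NK and NKT list. It averaged 40.2 CPM in WT MHC I high cells, where the mean NK and NKT sum was 55.0 CPM. The CD8-lineage sum was 1130 to 1470 CPM in Hoil ΔCd4 and 1380 to 1590 CPM in Sharpin cpdm MHC I high libraries. In Hoil ΔCd4 against WT MHC I high cells, 1 of 6 tested NK and NKT genes was higher (Gzma, 14.6 ± 4.45 against 4.83 ± 0.491 CPM) and 2 were lower (Eomes, and Klrd1 at 0.812 ± 0.382 against 3.15 ± 0.717 CPM). Of 5 tested gamma-delta T-cell genes, 4 were higher there and 3 in Sharpin cpdm MHC I high cells, against 6.65% and 8.62% of all genes. In the same comparisons edgeR called 2 and 1 of these gamma-delta genes. Their sum was 59.2 to 83.9 CPM in Hoil ΔCd4, 49.1 to 59.7 CPM in Sharpin cpdm and 42.5 to 49.1 CPM in WT MHC I high libraries. The part of subset composition in the rise of Il2rb, or in its Hoil ΔCd4 difference, was not tested. Sharpin lies 2.13 Mb from Il2rb on the same chromosome, and within 5 Mb on either side of Il2rb 31 of 182 tested genes (17%) were called in Sharpin cpdm MHC I low cells, against 12.2% of all genes, and 13 (7.14%) in MHC I high cells, against 8.62%.

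The ratio of β chain to α chain mRNA of the IL-2 receptor differed widely between groups. Between the fractions the β chain rose in every genotype. Against WT the α chain was lower in both mutants, whereas Il2rb was called only in the later fraction of Hoil ΔCd4 mice. Its log2 fold change was 0.065 in their earlier fraction. In Sharpin cpdm mice it was 0.006 in the earlier and 0.046 in the later fraction. Per length, Il2rb stood at 2.64, 2.99 and 2.01 times the level of Il2ra in the 3 WT MHC I low libraries, and at 5.07, 8.30 and 7.19 times in Hoil ΔCd4. In the MHC I high fraction that ratio was 16.1, 19.8 and 13.4 for WT mice, 36.9, 39.4 and 41.7 for Hoil ΔCd4 mice and 38.5, 29.3 and 38.1 for Sharpin cpdm mice. All mutant libraries of a fraction lay above all WT libraries of it.

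**Figure D3:**
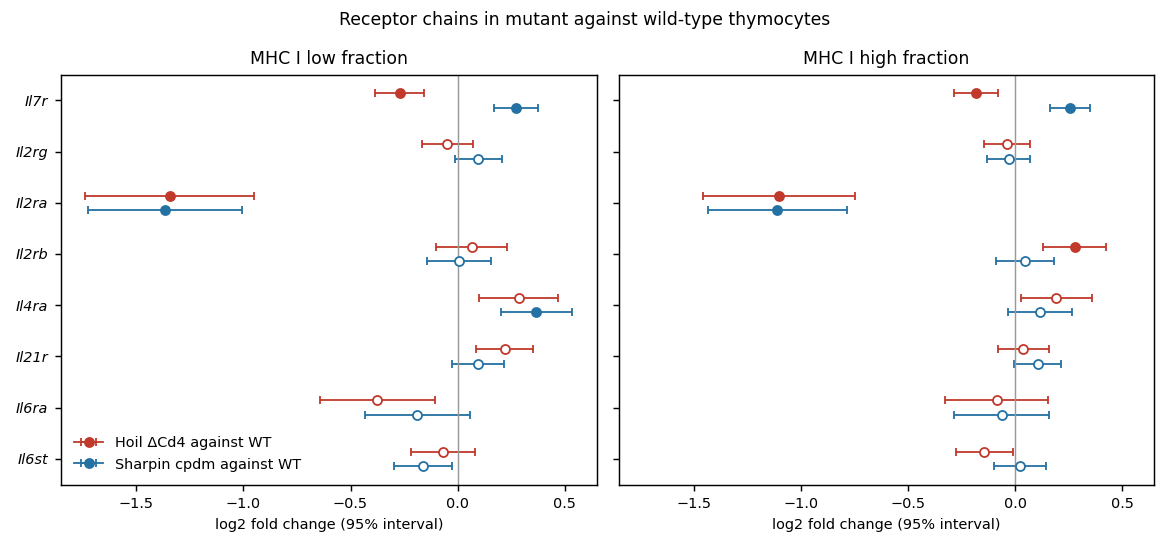
Log2 fold change against WT with its 95% interval for each receptor chain, in the MHC I low fraction (left) and the MHC I high fraction (right), with filled points where the limma adjusted p is under 0.05. Il7r lies on opposite sides of 0 in the mutants, and Il2ra lies between -1.37 and -1.10 in all 4 comparisons.

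The IL-4 receptor α chain was higher than WT in Sharpin cpdm MHC I low cells and fell with maturation in every genotype. Il4ra (chr7:125552271-125579474, GeneID 16190) was 252, 263 and 237 CPM in WT MHC I low mice, 270.3, 308 and 335 CPM in Hoil ΔCd4 and 359, 297 and 325 CPM in Sharpin cpdm. In the later fraction WT mice had 176, 198 and 178 CPM, Hoil ΔCd4 mice 177, 234 and 201 CPM and Sharpin cpdm mice 203, 186 and 207 CPM. In the MHC I low fraction all mutant mice lay above all WT mice, and in the MHC I high fraction both mutants overlapped WT. The log2 fold change in MHC I low cells was 0.37 for Sharpin cpdm (95% interval 0.20 to 0.54, limma adjusted p = 0.00399) and 0.29 for Hoil ΔCd4 (0.10 to 0.47, limma adjusted p = 0.154). The Hoil ΔCd4 value passed the threshold without Hoil ΔCd4 mouse 1 (limma adjusted p = 0.0261). In MHC I high cells the log2 fold changes were 0.12 for Sharpin cpdm (limma adjusted p = 0.370) and 0.19 for Hoil ΔCd4 (limma adjusted p = 0.160). Between the fractions Il4ra fell 1.38-fold in WT, 1.48-fold in Hoil ΔCd4 and 1.65-fold in Sharpin cpdm mice (limma adjusted p = 2.52e-06, 4.74e-06 and 5.67e-09). The fall in Sharpin cpdm mice was not shown to differ from that in WT (difference -0.25, 95% interval -0.45 to -0.05, limma adjusted p = 0.157). That difference was called in 1 of 20 alternatives, with each mouse as a fixed block (adjusted p = 0.00929, limma).

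Il21r, the neighbour of Il4ra 23.8 kb away, went the other way between fractions. Il21r (chr7:125603252-125634397, GeneID 60504) was 166, 180.3 and 173 CPM in WT MHC I low mice, 178, 213 and 213 CPM in Hoil ΔCd4 and 188, 184 and 179 CPM in Sharpin cpdm. Its MHC I high values were 218, 238 and 228 CPM for WT mice, 212, 253 and 231 CPM for Hoil ΔCd4 mice and 246, 249 and 235 CPM for Sharpin cpdm mice. The fractions did not overlap in WT and Sharpin cpdm mice, whereas in Hoil ΔCd4 the highest MHC I low mice were above the lowest MHC I high mouse. Il21r rose in all 9 mice, with log2 changes of 0.40 in WT (limma adjusted p = 2.67e-08), 0.22 in Hoil ΔCd4 (limma adjusted p = 0.00304) and 0.41 in Sharpin cpdm (limma adjusted p = 4.59e-08). The Hoil ΔCd4 rise was not shown to differ from that of WT (difference -0.18, 95% interval -0.34 to -0.03, limma adjusted p = 0.388). No comparison of Il21r with WT was called, the largest being a log2 fold change of 0.22 in Hoil ΔCd4 MHC I low cells (0.09 to 0.35, limma adjusted p = 0.104), which passed the threshold without Hoil ΔCd4 mouse 1 (limma adjusted p = 0.0112). Around Il4ra, 29 of 127 genes within 5 Mb (22.8%) were called in Sharpin cpdm MHC I low cells, against the 12.2% of all genes, and 15 (11.8%) in MHC I high cells, against the 8.62%.

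The ligand-binding chain of the IL-6 receptor rose about as steeply as Il2rb. Il6ra (chr3:89869324-89913196, GeneID 16194) was 16.1, 12.1 and 15.5 CPM in WT MHC I low mice, 10.8, 14.7 and 9.498 CPM in Hoil ΔCd4 and 12.8, 13.3 and 11.9 CPM in Sharpin cpdm. Among MHC I high libraries it reached 82.8, 71.4 and 71.4 CPM for WT mice, 82.2, 73.7 and 58.6 CPM for Hoil ΔCd4 mice and 68.6, 69.3 and 74.8 CPM for Sharpin cpdm mice. Every MHC I high library lay above every MHC I low library, and the genotypes overlapped within each fraction. The rise was 5.02-fold in WT (log2 2.33, SE 0.0975, limma adjusted p = 9.64e-17), 6.14-fold in Hoil ΔCd4 (log2 2.62, SE 0.120, limma adjusted p = 1.08e-15) and 5.48-fold in Sharpin cpdm (log2 2.45, SE 0.102, limma adjusted p = 7.62e-17). Against WT the log2 fold changes of Il6ra ran from -0.38 in Hoil ΔCd4 MHC I low cells (limma adjusted p = 0.217) to -0.06 in Sharpin cpdm MHC I high cells (limma adjusted p = 0.782), and none was called. The first of these passed the threshold without Hoil ΔCd4 mouse 2 (limma adjusted p = 0.0495).

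Its signalling partner gp130 changed little. Il6st (chr13:112464070-112506860, GeneID 16195) was 552, 519.9 and 537 CPM in WT MHC I low mice, 546, 545 and 465 CPM in Hoil ΔCd4 and 489.7, 513 and 420.5 CPM in Sharpin cpdm. The MHC I high values were 502, 449 and 523 CPM for WT mice, 506, 464 and 420.5 CPM for Hoil ΔCd4 mice and 513, 531 and 484 CPM for Sharpin cpdm mice. Sharpin cpdm MHC I low mice lay below the WT mice of that fraction, and elsewhere the groups overlapped. No comparison of Il6st with WT was called, the largest log2 fold change being -0.16 in Sharpin cpdm MHC I low cells (95% interval -0.30 to -0.03, limma adjusted p = 0.107). Between the fractions its log2 change was -0.17 in Hoil ΔCd4 mice (limma adjusted p = 0.0399), and that call was lost in 9 of 20 alternatives, for instance without the block on the mouse (adjusted p = 0.1, limma). In WT it was -0.09 (limma adjusted p = 0.157) and in Sharpin cpdm 0.09 (limma adjusted p = 0.182). Per length, Il6ra was 0.0442 ± 0.00547 of Il6st in WT MHC I low and 0.250 ± 0.0243 of it in WT MHC I high cells, so the ligand-binding chain remained the scarcer mRNA of the pair.

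**Figure D4:**
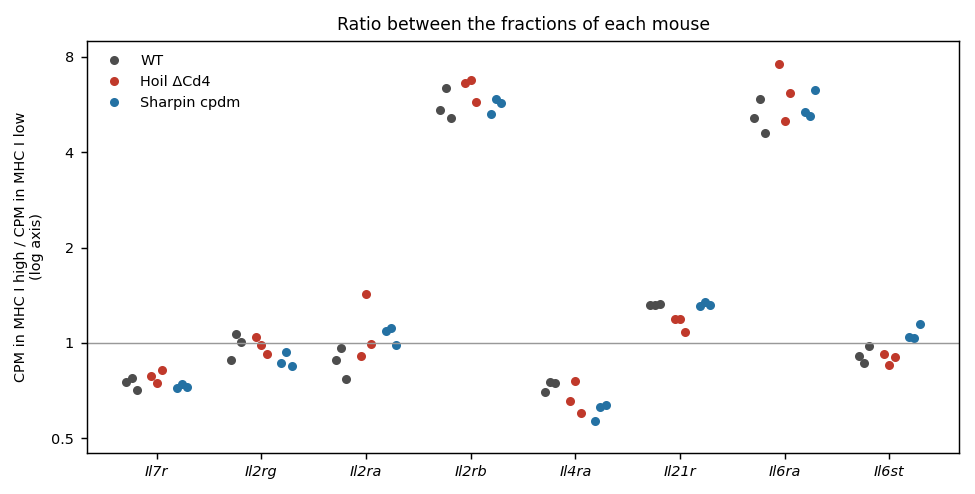
Ratio of the CPM in the MHC I high fraction to that in the MHC I low fraction of the same mouse (log axis, line at 1), with 3 mice per genotype for each receptor chain. Il2rb and Il6ra lie between 4.61 and 7.60 in all 9 mice, Il21r lies above 1, and Il7r and Il4ra lie below 1.

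Genes with the most similar profiles over the 18 samples were found by Pearson correlation of log2 CPM, where genotype and fraction are shared by all genes. Il2rb was closest to Ripor2 and Klf2 (r = 0.993 for both) and Il6ra to Bcl3 (0.995) and Rarg (0.992), and Il2rb and Il6ra had r = 0.983 with each other. For Il7r the closest were Dusp10 (0.938) and Setd1a (0.937), and for Il4ra Ctsz (0.971) and Csk (0.967). Il2ra was closest to Zfp971 (0.905) and Icam1 (0.900), Il21r to Rhoq (0.941) and Sugt1 (0.936), Il2rg to Tusc3 (0.870) and Yif1a (0.858), and Il6st to Ecrg4 (0.860) and Ralgapa1 (0.830). The profiles of Il2rb and Il6ra are dominated by the step between fractions, and that of Il2ra by the step between WT and the mutants.

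Among other interleukin receptor chains, calls between the fractions outnumbered calls between genotypes. Of 37 listed, 21 were tested, and limma called none in Hoil ΔCd4 against WT in either fraction. At an unadjusted p under 0.05 there were 5 in the earlier and 6 in the later fraction, where 1419 and 2821 of the 12798 genes were, edgeR called none, and DESeq2 called 1 in MHC I high cells. Against WT, 1 of them was higher in the MHC I low fraction of Sharpin cpdm mice (Crlf2, the TSLP receptor chain that pairs with Il7r, log2 0.36, limma adjusted p = 0.000700) and 3 were lower (Il27ra, Il18r1 and Il10rb), 4 of 21 where 12.2% of all genes were called. In Sharpin cpdm MHC I high cells Il20rb alone was called, higher by a log2 fold change of 0.70 (limma adjusted p = 0.0108). The genes named in these counts outside the naming rule were chosen after their values were seen. The median log2 fold change of the 21 chains was -0.15 in Sharpin cpdm MHC I low cells, against 0.0084 over all genes. Between the fractions in WT, 7 of the 21 rose and 9 fell, where 54.4% of all genes were called. Il27ra, which pairs with gp130 to bind IL-27, rose from 168 ± 8.30 to 386 ± 4.15 CPM. Il17rb, a receptor chain for IL-25, fell from 268 ± 34.9 to 43.9 ± 0.233 CPM. Il12rb1 fell from 87.0 ± 9.06 to 30.2 ± 3.83 CPM, and Il10rb rose from 14.1 ± 1.28 to 28.1 ± 1.56 CPM.

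Few ligands of the 8 chains were transcribed by these cells. Of 16 listed, 5 passed the filter, and limma, edgeR and DESeq2 called none in either mutant against WT or between the mutants, with at most 2 of the 5 at an unadjusted p under 0.05 in any of these comparisons. Between the fractions in WT, Clcf1, a ligand that signals through gp130, rose from 1.89 ± 0.438 to 24.7 ± 4.10 CPM and Osm, another, from 7.93 ± 0.481 to 15.9 ± 1.41 CPM. Il21 fell from 14.2 ± 1.49 to 7.17 ± 0.896 CPM. The ligand of Il21r was thus lower in the fraction where its receptor was higher.

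Downstream of the receptors, limma called between 0 and 2 of the 15 JAK and STAT genes in each comparison of genotypes. All 15 were tested, and against WT 0 and 2 were called in Hoil ΔCd4 MHC I low and high cells and 1 and 2 in the same fractions of Sharpin cpdm mice, all lower. Of all genes 0.985%, 6.65%, 12.2% and 8.62% were called in these 4 comparisons. Between the mutants 2 were called in each fraction, against 9.48% of all genes in the earlier and 6.73% in the later. In Hoil ΔCd4 MHC I low cells, where limma called none, 3 of the 15 had an unadjusted p under 0.05, and edgeR and DESeq2 called none in either fraction of Hoil ΔCd4 mice. In Sharpin cpdm MHC I high cells edgeR called none and DESeq2 1. The median log2 fold change of the 15 genes in Hoil ΔCd4 MHC I low cells was -0.03, and -0.0014 over all genes. Stat5a, a main transducer of IL-7 and IL-2 signals, was 216 ± 12.3 CPM in WT MHC I high cells, 192 ± 3.47 CPM in Hoil ΔCd4 and 190.1 ± 7.54 CPM in Sharpin cpdm. The log2 fold change of Stat5a was -0.20 (limma adjusted p = 0.0192) in the former and -0.21 (limma adjusted p = 0.00617) in the latter mutant. Stat4 was 29.1 ± 2.22 CPM in WT MHC I low cells and 21.3 ± 2.42 CPM in Sharpin cpdm (limma adjusted p = 0.00119). Jak3, the kinase bound to the γ chain, was 396 ± 21.7 CPM in WT, 358 ± 30.0 CPM in Hoil ΔCd4 and 419 ± 22.1 CPM in Sharpin cpdm MHC I high cells, and was called between the mutants (limma adjusted p = 0.0229).

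Feedback and target genes of STAT5, STAT3 and STAT6 moved in both directions. Of 29 listed, 27 were tested, and against WT 1 was higher and 3 lower in Hoil ΔCd4 MHC I low cells and 4 higher and 2 lower in MHC I high cells, where 0.985% and 6.65% of all genes were called. In that MHC I high comparison limma thus called 6, edgeR 2 and DESeq2 4. In Sharpin cpdm cells 2 were higher and 5 lower in the MHC I low and 1 higher and 4 lower in the MHC I high fraction, against 12.2% and 8.62% of all genes. Cish, which encodes the feedback inhibitor CIS, was 30.2 ± 2.47 CPM in WT MHC I high cells, 45.5 ± 9.59 CPM in Hoil ΔCd4 (log2 0.56, limma adjusted p = 0.00226) and 20.5 ± 1.28 CPM in Sharpin cpdm (log2 -0.61, limma adjusted p = 0.000219). Cish thus had the opposite signs of Il7r in that fraction. In MHC I low cells Cish was 14.9 ± 0.209 CPM in WT, 11.7 ± 1.19 CPM in Hoil ΔCd4 and 10.1 ± 1.25 CPM in Sharpin cpdm, where the latter was called (log2 -0.58, limma adjusted p = 0.000950). Socs1 was 70.9 ± 7.94 CPM in WT, 94.8 ± 12.1 CPM in Hoil ΔCd4 (limma adjusted p = 0.000945) and 60.1 ± 5.0 CPM in Sharpin cpdm MHC I high cells. Mcl1, a survival gene of the BCL-2 family, was 732 ± 41.1 CPM in WT, 701 ± 23.2 CPM in Hoil ΔCd4 and 519 ± 31.5 CPM in Sharpin cpdm MHC I high cells (log2 -0.47, limma adjusted p = 1.86e-07 for the latter). Slc2a3, a glucose transporter, followed the order of Il7r in MHC I low cells, at 97.6 ± 4.13 CPM in Hoil ΔCd4 (limma adjusted p = 0.0185), 120 ± 4.39 CPM in WT and 143 ± 8.51 CPM in Sharpin cpdm (limma adjusted p = 0.00893).

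Among 12 transcription factors that act on Il7r, all tested, those called against WT were Nr3c1 and Runx1, both higher. Nr3c1 was the 1 of 12 called in Hoil ΔCd4 MHC I high cells, where 6.65% of all genes were called. Runx1 was the 1 of 12 called in Sharpin cpdm MHC I low cells, against 12.2% of all genes. The part of these factors in the Il7r differences was not tested. Nr3c1, the glucocorticoid receptor, was 249 ± 9.56 CPM against 218 ± 6.60 CPM in WT (log2 0.21, limma adjusted p = 0.0245), a call that neither edgeR nor DESeq2 made, while Il7r was lower there. Runx1 was 214 ± 11.3 CPM against 181 ± 13.9 CPM in WT (log2 0.22, limma adjusted p = 0.0149), while Il7r was higher there. Of 13 genes that sort, ubiquitinate or shed receptors, 12 were tested. Limma called 0 and 1 of them in Hoil ΔCd4 MHC I low and high cells, against 0.985% and 6.65% of all genes. In Sharpin cpdm it called 2 in the MHC I low and 4 in the MHC I high fraction, against 12.2% and 8.62%. For each of these Sharpin cpdm fractions edgeR and DESeq2 called 1. Nedd4, a ubiquitin ligase, was called higher in both mutants in the MHC I high fraction, where WT had 181 ± 13.3 CPM. It was 224 ± 14.9 CPM in Hoil ΔCd4 (limma adjusted p = 0.000437) and 219 ± 20.5 CPM in Sharpin cpdm (limma adjusted p = 0.000295). Cbl, another ubiquitin ligase, was 293 ± 53.0 CPM in Sharpin cpdm MHC I low cells against 402 ± 24.4 CPM in WT (limma adjusted p = 0.00151).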

How the data were processed

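Thymocyte fractions were sorted from 9 mice and each sample was sequenced as 1 library with single-end reads. The authors aligned the reads by subread to mm10 and assigned them to genes by featureCounts, using a RefSeq-based annotation, and the deposited values are whole-number counts per gene, not normalized, beside the gene length used for levels per kb. Tool versions, strand and multi-mapping settings are not given in the sources used here, so reads of overlapping genes cannot be assigned with certainty. Genes reaching 0.5 CPM in 3 or more samples were analysed, without chromosome Y genes, Xist and predicted genes. TMM-scaled log2 CPM (prior count 1) of all 18 samples were fitted with limma 3.58.1 (R 4.3.3, statmod 1.5.0), with sample weights (0.6282 to 2.423), the mouse as a random block (correlation 0.224), an abundance trend and robust empirical Bayes. Adjusted p-values are Benjamini-Hochberg over 12798 genes, and 0.05 is the threshold. The pairing of fractions comes from the mouse named in the labels (correlation of deviations 0.0702 to 0.256), while equal numbers across genotypes share only a number. The script was tested on simulated data. Alternatives were edgeR 4.0.16 and DESeq2 1.42.0, other scalings, filters, prior counts, weights and blocks, Xist as a covariate and leaving out each mouse. Promoters and coordinates were taken from RefSeq for GRCm38.p6. The 8 genes and all gene lists were chosen with earlier results of these data known. From each list at most 4 genes were named, those with the smallest p over the comparisons described for it, and for each receptor chain the 2 genes of highest correlation. Chromosomal neighbours, the label check, the regulatory T-cell genes and the class I genes of the mature marker sum were described beside these. The values of 1 gene that this rule names are not reported here. The limma p-values of a gene rest on a single estimate of spread, shared by all 18 samples and moderated across genes, with 3 mice per group.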

Additional observations from a re-analysis of the deposited data

How the results depend on the processing

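Over the 8 genes and 11 comparisons, 24 of the 29 calls held in every alternative and 53 of the values without a call had none in any. Of 1712 single values, 24 lost and 15 gained a call, none of the called ones changed sign, and 61 uncalled ones did. The count of called chains in Hoil ΔCd4 against WT moved from 2 to 4 in MHC I low cells with Xist as a covariate, as a stand-in for sex (Il6ra and Il21r were added), and lay between 1 and 4 when mice were left out one at a time, in both fractions. In MHC I low cells leaving out WT mouse 1 or 3 left 1 and leaving out Hoil ΔCd4 mouse 1 gave 4, and in MHC I high cells leaving out WT mouse 1, WT mouse 3 or Hoil ΔCd4 mouse 2 left 1 of 3. In Sharpin cpdm against WT MHC I high cells it lay between 1 and 2 (1 without WT mouse 3). Between the mutants in MHC I high cells it rose from 1 to 2, by Il2rb, under DESeq2, edgeR, scaling by library size only, a fit of the compared groups only and Xist as a covariate, and lay between 1 and 2 when mice were left out. Treating the number of the mouse as a replicate block across genotypes also gave 2 there, and each mouse as a fixed replicate block gave 1 in place of 0 for the change between fractions of Sharpin cpdm against WT (Il4ra) and moved the genes called from 400 to 634. The block changed no other call but that of Il6st without it. Over all genes, calls against WT in Hoil ΔCd4 ran from 62 to 222 in MHC I low cells (126 reported, lowest without WT mouse 1) and from 134 to 1219 in MHC I high cells (851 reported, lowest without WT mouse 3), both highest without Hoil ΔCd4 mouse 1. In Sharpin cpdm they ran from 818 to 1678 (1565 reported) and, in MHC I high cells, from 238 to 1367 (1103 reported), the lowest of each without WT mouse 3. Between the mutants they ran from 707 (without Sharpin cpdm mouse 2) to 1637 (1213 reported) and from 324 (without Hoil ΔCd4 mouse 2) to 1160 (861 reported). In the MHC I high fraction edgeR gave 404 for Hoil ΔCd4 against WT, 521 for Sharpin cpdm against WT and 518 between the mutants. For the change between fractions against WT they ran from 0 to 77 in Hoil ΔCd4 (51 reported, 1 by edgeR, 21 by DESeq2, 6 without the replicate block) and from 30 to 634 in Sharpin cpdm (400 reported, 30 by edgeR, 134 by DESeq2, 124 without the replicate block). The cause of these moves was not tested. Il2ra, with as few as 56 reads in a library, has the widest intervals, and 3 mice per group limit all.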
